A study of Mus musculus with 6 samples.

Results

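The dense clusters described here are 1 kb bins of the mouse autosomes that held 25 or more CG dyads listed for 5-hydroxymethylcytosine (5hmC). A CG dyad is the pair of cytosines that face each other, 1 on each strand, at a CG dinucleotide. The autosomes were divided into bins from their first base, each listed dyad was given to its bin, and bins were chosen by their number of 5hmC dyads. This gave 6573 dense bins among 2020473 bins with at least 1 listed 5hmC dyad, or 0.325%. They held 188409 of 11135596 autosomal 5hmC dyads, or 1.69%. Because the number of 5hmC dyads chose the bins, that number and the other 5hmC values in them are descriptions and support no further statement.

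5hmC is made by the TET enzymes, which oxidise 5-methylcytosine, and 5-formylcytosine (5fC) is the next product of the same enzymes. 5fC can be cut out of DNA by the glycosylase TDG, which opens a route back to plain cytosine. In vertebrate genomes CG is rare over most of the sequence and crowded in CpG islands and in some exons and repeats, so a bin with many listed dyads must first of all be rich in CG.

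The DNA came from E14 cells, an established line of mouse embryonic stem cells grown without feeders in serum with LIF, which keeps them undifferentiated. The assay, Pvu-Seal-seq, uses PvuRts1I, an enzyme that cuts a short way from a modified cytosine, followed by capture of tagged fragments. Of the 6 libraries in the labels, 4 belong to a culture at passage 14, with 2 technical replicates for each mark. The other 2 are 5hmC libraries of a culture at passage 12. For each mark a listed cytosine has a single read number and none per library, and how libraries were combined is not stated. There was thus no replicate error, and no test between bins or marks was made.

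Listed 5hmC cytosines numbered 20807956 with 264008048 reads in total, and listed 5fC cytosines 6248342 with 102305049 reads, each with at least 2. Intervals given below are 95% Wilson intervals over dyads. They cover counting error only, since dyads of 1 bin share DNA, sequence and reads without molecular identifiers. Why a cytosine entered a list or not is not stated in the sources used here, so an unlisted cytosine may still carry the mark. The number of CG dinucleotides per bin was not counted, since no mm9 genome was used here. No sequence is printed for the same reason.

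Most dense bins lay close above the limit. The median bin held 27 dyads, the upper quartile was 30 and the 95th percentile 38, and 222 bins held 40 or more. The listed dyads filled most of a bin, with a median of 921 bases between the outermost dyads. The widest empty stretch between neighbouring dyads had a median of 138 bases. The 1978 bins with 24 dyads, just outside the limit, resembled the 1490 bins with 25. Mean 5hmC reads per dyad were 24.3 and 23.6, dyads listed on both strands made up 45.9% and 45.3%, and dyads with listed 5fC 54.6% and 54.2%.

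**Figure D1:**
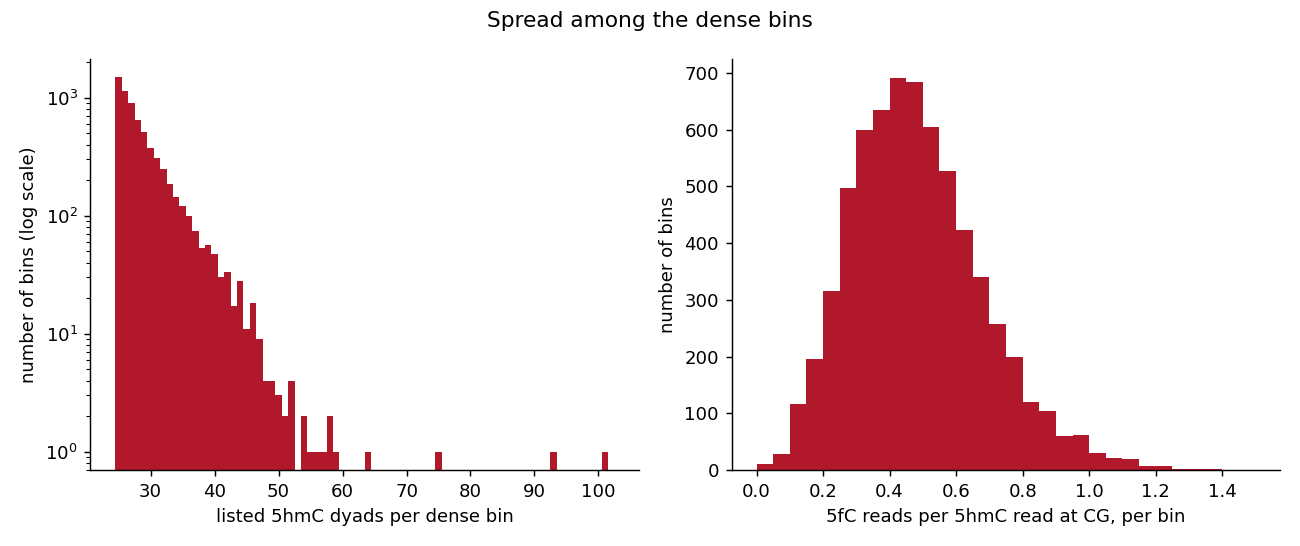
The left plot counts dense bins (vertical axis, log scale) by their number of listed 5hmC dyads, and the right plot counts them by 5fC reads per 5hmC read at CG in the bin. Numbers of dyads fall off from 25 to a few bins above 60, and the ratio spreads around a median of 0.463 with 96 bins above 1.

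An example bin shows what such a cluster looks like. It lies in mm9 on chromosome 10 from 127021001 to 127022000 and was picked, after the values were seen, among bins with 28 dyads for its reads, pairing and 5fC read ratio near the medians of all dense bins. Its 28 dyads carried 640 5hmC reads, and 12 of them were listed on both strands. 5fC was listed at 19 of the 28, or 67.9%, which is the upper quartile over dense bins and above their median of 55.9%. All 5fC dyads of the bin had 287 reads. Reads changed sharply from dyad to dyad. The dyad at 107 bases had 80 5hmC reads on the plus strand and none listed on the minus strand, and 35 5fC reads on the same strand. At 906 bases the 5hmC reads were 32 and 35 on the plus and minus strand, while 5fC was listed with 14 reads on the minus strand alone. At 730 bases a dyad was listed through 2 reads on 1 strand.

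**Figure D2:**
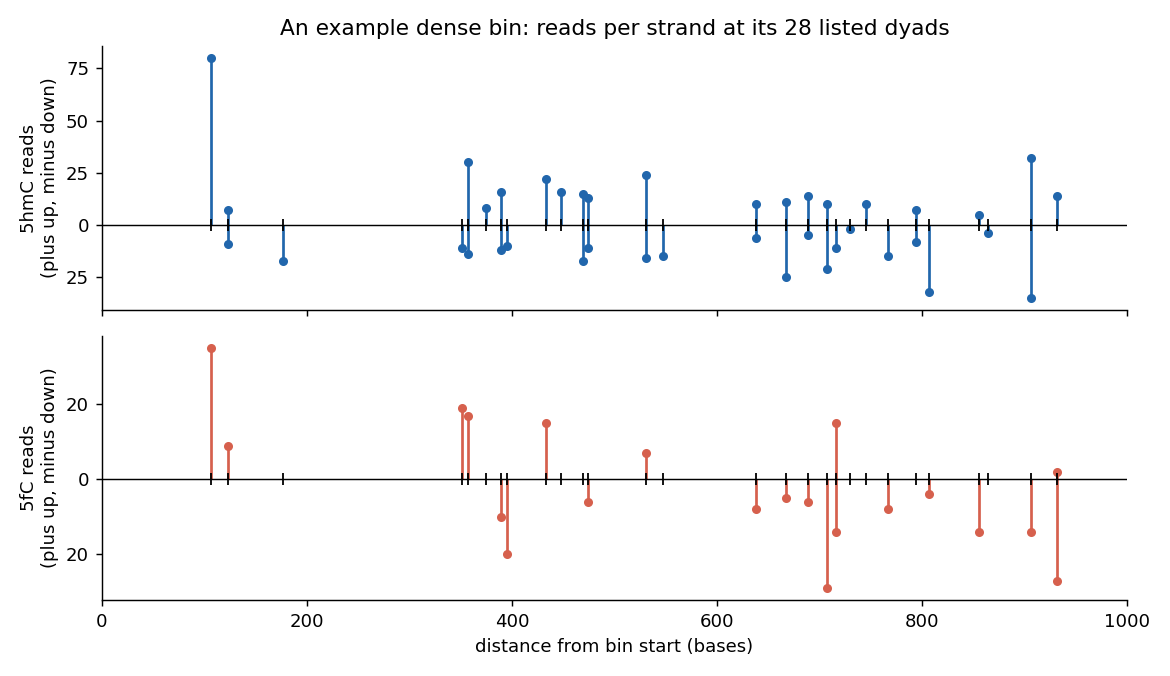
Reads at each of the 28 listed 5hmC dyads of the example dense bin, by distance from the bin start in bases, for 5hmC (upper plot) and 5fC (lower plot), with plus-strand reads upward and minus-strand reads downward; ticks on the zero line mark the dyads. Many dyads carry reads on 1 strand and neighbours differ several-fold, with 80 reads at the deepest cytosine and 2 at the shallowest for 5hmC.

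Read numbers per dyad in dense bins were a little above those of other bins and no longer rose with density. The mean was 22.7 5hmC reads per dyad (quartiles 8, 17 and 31), against 20.3 in bins with 1 to 24 dyads (7, 14 and 27). Across the whole range of density the mean climbed from 10.8 reads in bins with a single dyad to 24.7 in bins with 15 to 19 dyads. It then fell to 24.51 with 20 to 24 dyads, 23.4 with 25 to 29, 21.4 with 30 to 39 and 20.97 with 40 or more. Within dense bins the reads were spread over the dyads. The deepest dyad took a median of 11.2% of a bin's 5hmC CG reads, and 17.8% at the 95th percentile. The 5th and 95th percentiles of mean reads per dyad over bins were 11.8 and 35.1.

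Dyads listed for 5hmC on both strands made up 44.1% of dense-bin dyads (interval 43.9 to 44.3%), against 39.9% in bins with fewer dyads (39.9 to 39.9%). Over density this share behaved like the reads: it was 23.5% at single-dyad bins, highest at 46.5% with 15 to 19 dyads, 42.5% with 30 to 39 and 39.1% with 40 or more. The strands were used evenly, since 50.4% of the 105296 dense-bin dyads listed on 1 strand were on the plus strand. At equal 5hmC reads per dyad the share on both strands was slightly higher in dense bins at few reads and lower at many. With 2 to 4 reads it was 0.759% in dense bins and 0.636% in the others, higher in 13 of 19 autosomes, and with 5 to 8 reads 11.8% and 11.1%. With 9 to 16 reads it was 35.3% in dense bins and 35.5% in the others, and with 33 to 64 reads 74.8% and 76.3%. With 65 to 128 reads it was 84.8% and 86.8%. The lower share at 33 to 64 reads held in all 19 autosomes, where dense bins were 0.218 to 3.61 percentage points below the others. At 9 to 16 reads dense bins were higher in 9 of 19.

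Single bins varied more in pairing than dyad numbers alone would give. Over bins the share on both strands had a mean of 44.3% and an SD of 12.1 percentage points, where independent dyads with 1 common share would give 9.36. The share followed the reads of the bin. It was 32.4% in the 1644 bins with the fewest reads per dyad and 53.5% in the 1643 with the most. In 2347 bins, 35.7%, at least 50% of dyads were listed on both strands. None of the dense bins had all its dyads on both strands, and 1 had none.

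5fC was listed far more often in dense bins than elsewhere. Of dense-bin 5hmC dyads 54.9% (interval 54.7 to 55.1%) also had listed 5fC on at least 1 strand, against 31.8% (31.8 to 31.8%) in bins with 1 to 24 dyads. The 5fC list took no part in choosing the bins, although both lists rest on the same enzyme and on the same CG sequence. The share climbed with density from 10.2% in single-dyad bins through 29.1% with 5 to 9 dyads and 47.6% with 15 to 19, and then levelled at 52.6% with 20 to 24, 55.1% with 25 to 29, 54.8% with 30 to 39 and 52.4% with 40 or more. Dense bins held 2.90% of autosomal 5fC dyads and 2.65% of 5fC CG reads, beside 1.69% of 5hmC dyads and 1.89% of 5hmC CG reads.

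In reads, dense bins had 0.496 5fC reads per 5hmC read at CG, 1.41 times the 0.351 of other bins. This ratio rose from 0.187 in single-dyad bins to 0.468 with 20 to 24 dyads, 0.493 with 25 to 29, 0.499 with 30 to 39 and 0.518 with 40 or more. The last class held 206267 5hmC reads, of which 21823 lay in 1 bin on chromosome 11 from 3093001, and without that bin its ratio was 0.503. The gain lay in the number of 5fC dyads and not in their depth. 5fC dyads in dense bins had a mean of 18.99 and a median of 14 5fC reads, against 20.8 and 15 in other bins. There were 0.593 5fC dyads per 5hmC dyad in dense bins and 0.342 in others.

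All but 1 dense bin had at least 1 5fC dyad, with a median of 17 per bin. The share of a bin's 5hmC dyads with 5fC had a median of 55.9%, with 5th and 95th percentiles of 24.2% and 81.5%. Its SD over bins was 17.2 percentage points, against 9.38 for independent dyads with 1 common share, so 5fC set dense bins apart from each other more than strand pairing did. It was 40.4% in the 1644 bins with the fewest 5hmC reads per dyad and 69.0% in the 1643 with the most. Of 609 autosomal bins with 25 or more 5fC dyads, 599 were dense 5hmC bins, or 98.4%, and these made up 9.11% of the dense bins. Dense bins were 0.325% of all bins with a listed 5hmC dyad. In bins with a listed 5hmC dyad, 93.0% of 5fC dyads also had listed 5hmC. This overlap was therefore largely set in advance and is no independent result.

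As a ratio, the share with 5fC differed more at dyads with few 5hmC reads. With 2 to 4 5hmC reads per dyad, 28.3% of dense-bin dyads had 5fC (interval 27.7 to 28.9%) against 9.35% of others (9.31 to 9.40%). With 9 to 16 reads the shares were 45.9% and 21.5%, with 33 to 64 reads 79.2% and 66.8%, and above 128 reads 99.0% in both. Dense bins were thus 3.02 times, 2.14 times and 1.19 times the others at 2 to 4, 9 to 16 and 33 to 64 reads. In percentage points the difference was 18.9 at 2 to 4 reads, 24.4 at 9 to 16 and 12.5 at 33 to 64. Where 5fC was listed at the dyads with 2 to 4 5hmC reads, it had a mean of 12.0 reads in dense bins and 12.5 in others. Over all dyads of this class there were 1.09 5fC reads per 5hmC read in dense bins, against 0.376 elsewhere. The class limits 5hmC to 4 reads per dyad and sets no limit for 5fC, so a value above 1 does not show more 5fC than 5hmC. With 9 to 16 reads the values were 0.537 and 0.250. The difference in the share with 5fC held in each of the 19 autosomes. With 2 to 4 reads the dense-bin share was between 22.8% and 33.3% and that of other bins between 7.66% and 13.4%. With 9 to 16 reads the dense bins were 21.3 to 27.9 percentage points higher. Bins with 20 to 24 dyads were near the dense bins throughout, for example at 25.5% with 2 to 4 reads and 40.7% with 9 to 16, so the limit of 25 marks no step.

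**Figure D3:**
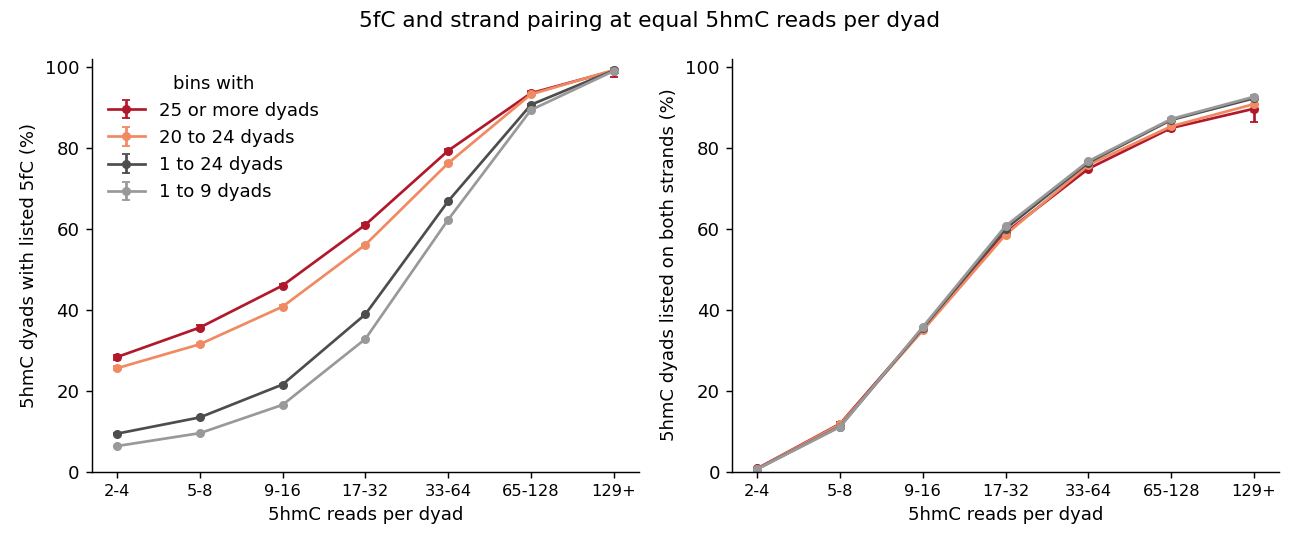
Share of 5hmC dyads with listed 5fC (left) and listed for 5hmC on both strands (right), in percent, by 5hmC reads per dyad, for bins with 25 or more, 20 to 24, 1 to 24 and 1 to 9 listed dyads; bars are 95% Wilson intervals. The lines for 5fC are far apart at few reads (28.3% against 9.35% at 2 to 4 reads for dense bins and bins with 1 to 24 dyads) and meet above 128 reads, while the lines for strand pairing nearly coincide up to 32 reads.

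Counted by state, 29.8% of dense-bin dyads had 5hmC on 1 strand and no 5fC, against 46.1% elsewhere. Dyads with both marks on both strands were 9.70% of the dense-bin dyads and 4.98% of others. These dyads also had the most reads, with medians of 40 5hmC and 31 5fC reads in dense bins. Dyads with 5hmC on 1 strand and 5fC on both were 4.63% and 1.80%. In dense bins 40387 dyads had each mark on a single strand, and it was the same strand for both marks in 77.2% of them (interval 76.7 to 77.6%), below the 79.9% of other bins (79.8 to 79.9%). In the reverse direction, 92.5% of the 111771 5fC dyads in dense bins had listed 5hmC, and 93.0% in other bins. 5fC itself was on both strands in 25.04% of dense-bin 5fC dyads and in 20.3% of others. Bins with 20 to 24 dyads had 25.5% here and 77.7% for the same strand, so neither value is particular to dense bins.

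5fC also differed with crowding on a scale shorter than the bin. Among dense-bin dyads with 9 to 16 5hmC reads, 5fC was listed at 35.0% of those with up to 2 other listed 5hmC dyads within 100 bases on either side. The share was 42.5% with 3 to 4, 46.2% with 5 to 6, 49.5% with 7 to 9 and 48.1% with 10 or more. In bins with 1 to 24 dyads the same classes had 17.3%, 29.8%, 37.5%, 43.1% and 46.3%. Dense bins were above the others by 17.7 percentage points in the emptiest class and 1.83 in the most crowded. Numbers of neighbours need not match within a class, so each number was also taken alone, a step chosen after the values were seen. With exactly 1 neighbour the shares were 33.2% and 17.7%, with 4 they were 43.8% and 32.8%, with 8 they were 50.2% and 43.9%, and with 10 they were 48.9% and 47.0%. Strand pairing at 9 to 16 reads did not follow crowding in dense bins and stayed between 34.5% and 35.8%.

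Neighbouring dyads shared their 5fC state. In dense bins the next dyad had 5fC in 62.9% of cases after a dyad with 5fC and in 45.4% after a dyad without. For neighbours 20 to 23 bases apart the values were 73.5% and 49.6%, and for those more than 100 bases apart 53.6% and 44.5%. In other bins the overall values were 50.0% and 25.9%. A part of this follows from bins having different shares, and how large it is was not computed.

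The listed dyads of dense bins had a median distance of 21 bases to the next (quartiles 10 and 42), against 63 bases in other bins (24 and 151). Within dense bins 26.5% of neighbours were 10 or fewer bases apart and 5.36% more than 100. Dyads 2 bases apart spell CGCG, and 2.31% of the dense-bin distances were of this kind, beside 0.877% elsewhere. Closeness of dyads follows from how the bins were chosen, so the shape of the distances is described and not their size.

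A distance of 20 to 23 bases, a window chosen with earlier results of these data known, stood out. The enzyme of the assay cuts a short way from a modified cytosine. Its part in this spacing, and in the strand and read values below, was not tested. In dense bins 30.0% of dyads had another listed dyad 20 to 23 bases away on either side, compared with 22.3% at 10 to 13 and 24.5% at 30 to 33 bases. In other bins the shares were 9.91%, 7.60% and 7.75%. The peak was at 21 bases, where 5.05% of dense-bin dyads had a dyad downstream, followed by 4.32% at 6 bases and 4.24% at 22 bases. For 5fC dyads of dense bins, another 5fC dyad lay at a given distance of 20 to 23 bases in a mean of 3.66% of cases, and at 30 to 33 bases in 2.28%.

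At this distance the cytosines that were listed faced each other. For a pair of dyads, the facing cytosines are the plus-strand cytosine of the left dyad and the minus-strand cytosine of the right one. Each then has the other dyad on its 3′ side. With dyads 21 bases apart both facing cytosines were listed in 89.7% of 9508 dense-bin pairs, and the outer cytosines in 36.4%. At 22 bases the values were 86.8% and 37.1%, at 20 bases 78.5% and 40.4% and at 23 bases 67.2% and 45.4%. Between 30 and 33 bases, where no such preference was seen, they were 51.2% and 50.1%. At 11 bases the order was reversed, with 31.4% for facing and 61.9% for outer cytosines. The same profile was found in other bins, with 80.7% and 41.5% at 20 to 23 bases beside 81.6% and 39.4% in dense bins.

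**Figure D4:**
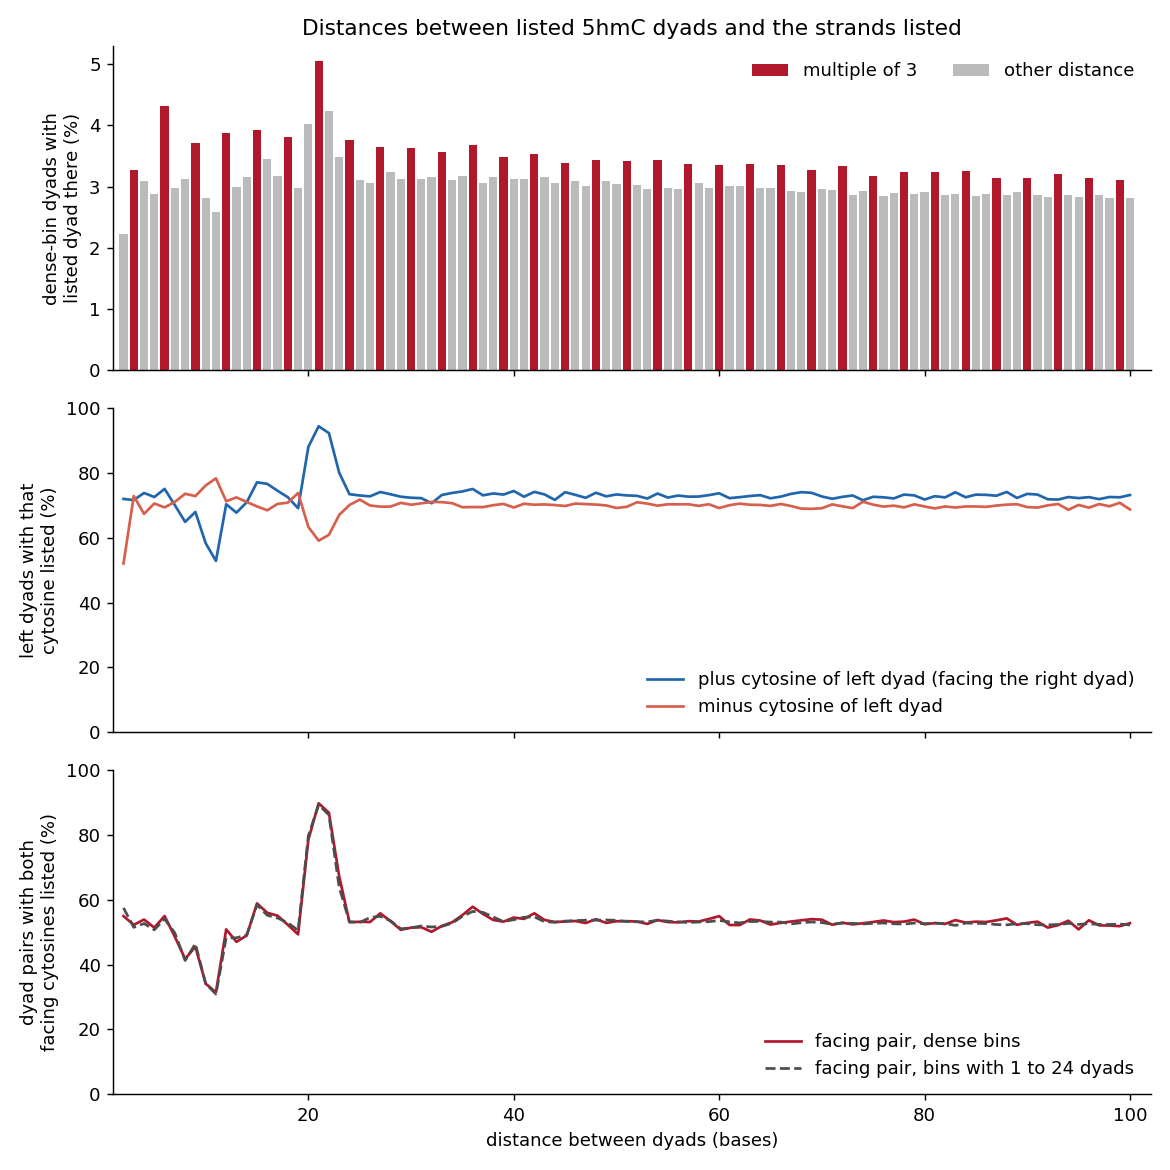
Against the distance between listed 5hmC dyads in bases, the upper plot gives the share of dense-bin dyads with another dyad at that distance downstream, the middle plot the share of left dyads whose plus or minus cytosine was listed, and the lower plot the share of pairs with both facing cytosines listed, in dense and other bins. All 3 plots peak at 21 bases (5.05%, 94.4% for the plus cytosine and 89.7%), and the upper plot also rises at each multiple of 3.

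Read numbers were tied in the same way. Facing 5hmC cytosines 20 to 23 bases apart, where both were listed, had a Spearman correlation of 0.52 over 25825 dense-bin pairs and a median of 16 reads each. The outer cytosines of the same dyads had 0.05, with a median of 10 reads. Facing cytosines 30 to 33 bases apart had 0.02. At 20 to 23 bases the facing cytosines had 0.51 in bins with 20 to 24 dyads and 0.48 in bins with 1 to 24. These pairs share library, depth and enzyme and are not independent. The read numbers were exactly equal in 4.26% of facing and 4.21% of outer pairs, and within 1.5-fold of each other in 41.2% and 28.5%, at medians that differed as given above. For 5fC the facing cytosines had a correlation of 0.17 and were both listed in 32.2% of pairs, beside 11.1% for outer ones. In bins with 1 to 24 dyads these 5fC values were 0.21, 22.5% and 8.36%.

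Strand pairing in dense bins differed between dyads with and without such a partner. A dense-bin dyad with a listed dyad 20 to 23 bases downstream alone had its plus cytosine listed in 90.4% and its minus cytosine in 58.0% of cases. With the partner upstream alone the values were 58.5% and 90.1%. With partners on both sides, 2.79% of dense-bin dyads, 66.5% were listed on both strands and the median was 25 5hmC reads. Without such a partner, 70.0% of dense-bin dyads, the share was 41.5% and the median 15 reads. In other bins 90.1% of dyads had no such partner, with 38.5% on both strands and a median of 13 reads. With partners on both sides the order was reversed, since other bins had 71.7% on both strands and a median of 30 reads. With the partner downstream alone, 48.5% were on both strands in dense bins and 51.5% in other bins. The plus and minus cytosines of these dyads in other bins were listed in 89.1% and 62.4%, so the strand preference is not particular to dense bins. 5fC moved with the partner as well. It was listed at 69.8% of dense-bin dyads with partners on both sides and at 51.1% of those with none, against 62.5% and 29.9% in other bins.

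Distances in dense bins also had a period of 3 bases. From 30 to 98 bases, a dyad was followed by another in a mean of 3.35% of cases at distances that are multiples of 3, and in 2.97% at distances with a remainder of 1 or of 2. All 22 multiples of 3 with a neighbour on each side in this range were above both neighbours. The same held for all 22 in bins with 20 to 24 dyads and in bins with 1 to 24, so the period is not particular to dense bins. The ratio of multiples of 3 to other distances was 1.13 in dense bins, 1.07 in bins with 20 to 24 dyads and 1.03 in bins with 1 to 24. Between 5fC dyads it was 1.13 in dense bins, 1.06 in bins with 20 to 24 dyads and 1.03 in bins with 1 to 24. A period of 3 is a known property of protein-coding sequence. Whether these bins hold exons was not tested, since no mm9 annotation was used here.

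Cytosines outside CG were listed for 5hmC at a mean of 19.7 per dense bin, and made up 32.3% of the listed cytosines there against 23.5% in other bins. Along their own strand 83.2% of them had a listed CG dyad 20 to 23 bases downstream (interval 83.0 to 83.4%). The share was 62.1% in other bins (62.0 to 62.1%). In bins with 20 to 24 dyads it was 80.3%, and 32.0% of their listed cytosines were outside CG. At the same distance upstream it was 12.3% in dense bins and 5.85% in other bins. At 30 to 33 bases downstream it was 12.8% and 4.93%. CA made up 41.9% of dense-bin sites outside CG and 48.9% elsewhere. CC made up 25.3% and 21.2%. For 5fC, 28.2% of dense-bin cytosines were outside CG and 68.1% of these had the 5fC dyad downstream, against 57.1% in other bins. Bins with 20 to 24 dyads had 27.9% and 68.4%, so these values are not particular to dense bins.

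Dense bins were most frequent on chromosomes 8 and 11. Chromosome 11 held 706 of them, 5.79 per Mb, and chromosome 8 held 695, 5.28 per Mb. The other 17 autosomes had between 1.12 per Mb on chromosome 14 and 3.98 per Mb on chromosome 5. Together chromosomes 8 and 11 held 21.3% of dense bins and 10.8% of all bins with a listed dyad. They held 42.0% of the 552 dense bins left when each cytosine had to have at least 10 reads. Their share of all bins with a dyad at that limit is not given here, so 42.0% is not comparable with 10.8%. Both chromosomes also had more reads per dyad in dense bins, 28.9 and 28.6, than the 19.5 to 22.4 of the others. The copy number of these chromosomes in the cultures was not tested. 5fC was listed at 62.7% and 61.7% of their dense-bin dyads, and at 48.2% to 55.1% on the other autosomes. For bins with 1 to 24 dyads these shares were 38.8% and 42.0%, and 27.8% to 33.4%. In each of the 19 autosomes dense bins had more 5fC than other bins, by 19.3 to 25.03 percentage points, and a 1.30 to 1.58 times higher ratio of 5fC to 5hmC reads. Without chromosomes 8 and 11 the share with 5fC was 52.9%.

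**Figure D5:**
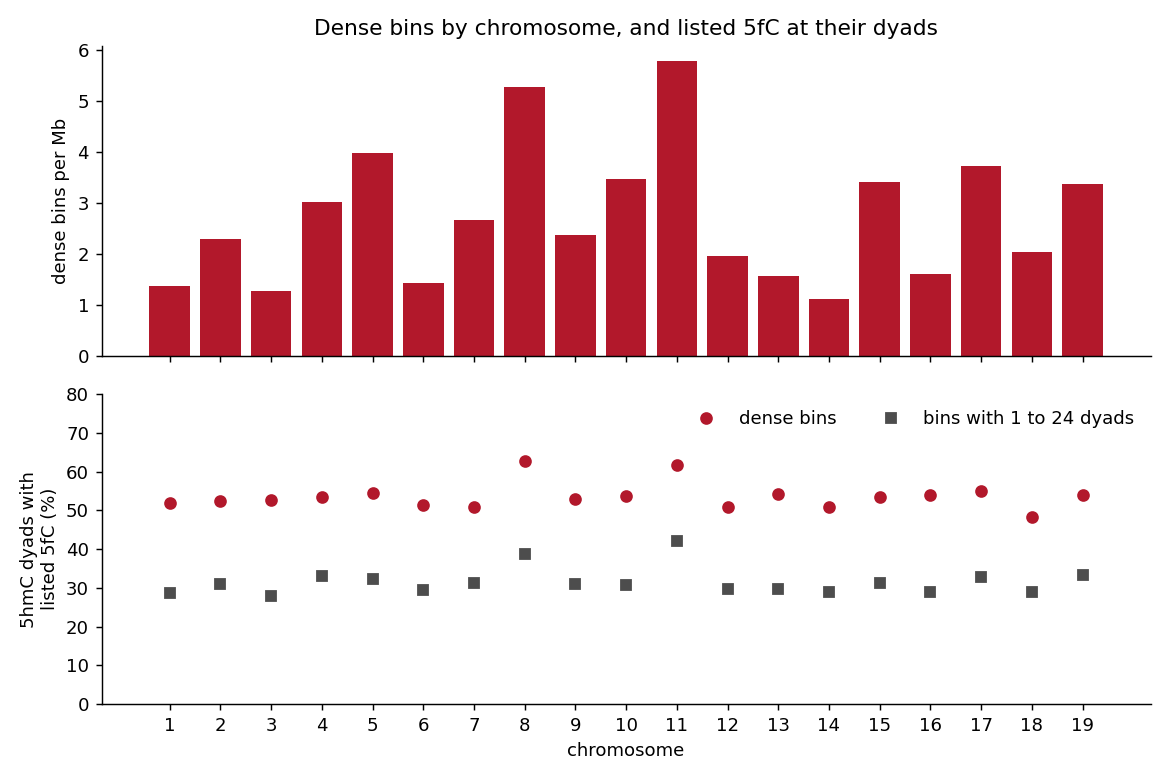
Dense bins per Mb on each autosome (upper plot) and the share of 5hmC dyads with listed 5fC in dense bins (circles) and in bins with 1 to 24 dyads (squares), in percent (lower plot). Chromosomes 8 and 11 stand above the others in both plots, at 5.28 and 5.79 bins per Mb, and the circles lie above the squares on every autosome.

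Dense bins lay alone more often than side by side. Of 5860 separate stretches, 5288 were a single bin, 472 were 2 adjoining bins and 82 were 3. The bins directly beside a dense bin held a median of 13 dyads (quartiles 8 and 19), against 4 over all bins with a dyad. The nearest other dense bin was a median of 17 kb away, and 42.1% of dense bins had another within 10 kb. Only 0.325% of bins with a dyad were dense, and how many would adjoin or lie this close by number alone was not computed. The last Mb of the chromosomes held 0.806% of dense bins and 0.754% of all bins with a dyad.

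The 3 longest stretches were named by rule, with ties in length settled by the number of dyads. In mm9, chromosome 15 from 76003001 to 76015000 had 12 adjoining dense bins with 489 dyads, 42.9% of them on both strands and 51.3% with 5fC. Chromosome 4 from 141028001 to 141035000 had 7 bins with 250 dyads, 122 on both strands and 160 with 5fC. Chromosome 17 from 39980001 to 39986000 had 6 bins with 425 dyads, the most among the 4 stretches of 6 bins, 50.1% and 76.9%. The last of these is, from general knowledge and not from an annotation used here, the place where the mm9 assembly carries a copy of the 45S ribosomal RNA gene, which mouse cells hold in many copies. This stretch had 40.5 5hmC reads per dyad, against 22.7 in all dense bins. The sources used here do not say how reads from other copies were placed, and their part in these values was not tested.

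This stretch of chromosome 17 held 4 of the 5 dense bins with the most dyads. The bin from 39982001 to 39983000 had the most, 101 dyads with 3003 5hmC and 1002 5fC reads. Next to it, the bin from 39981001 had 93 dyads with 3373 5hmC and 1153 5fC reads. The other bins of the stretch had more 5fC per 5hmC read. The bin from 39985001 had 75 dyads with 3007 5hmC and 2173 5fC reads, and the bin from 39980001 had 64 dyads with 3175 and 1791. The ratio of 5fC to 5hmC reads was thus 0.334 and 0.342 in the bins with the most dyads and 0.723 and 0.564 in these. The bins from 39983001 and 39984001, with 51 and 41 dyads, had 0.511 and 0.689. The fifth bin, on chromosome 8 from 124277001 to 124278000, had 59 dyads, 23 on both strands, and 607 5fC against 1263 5hmC reads.

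The ratio of 5fC to 5hmC reads also named bins at either end. The 3 highest, among bins without a cytosine above 1000 reads, were 1.46, 1.39 and 1.38. They lay on chromosome 11 (85708001 to 85709000), chromosome 12 (73564001 to 73565000) and chromosome 4 (140195001 to 140196000). The bin on chromosome 12 had 26 dyads, 767 5hmC and 1069 5fC reads, and 5fC at 88.5% of its dyads. That on chromosome 4 had 307 and 424 reads and 5fC at 56.0%. The 3 lowest had few 5hmC reads too. Chromosome 15 from 72640001 to 72641000 had 25 dyads, 210 5hmC reads and no listed 5fC at any dyad. Chromosome 15 from 58787001 to 58788000 had 27 dyads with 267 5hmC and 5 5fC reads. Chromosome 8 from 72405001 to 72406000 had 32 dyads with 260 and 6 reads. Their 8.13 to 9.89 5hmC reads per dyad lay below the 11.8 at the 5th percentile of dense bins, and 12.5% to 22.2% of their dyads were on both strands.

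Few dense bins shared a pattern of distances that would mark copies of 1 sequence. The same 6 consecutive distances between listed dyads, in either orientation, occurred in another bin that does not adjoin it for 36 dense bins, 0.548%. By shared patterns 24 of these 36 fell in 1 family spread over 17 chromosomes, with 25 to 43 dyads each. This family had 5fC at 55.4% of its dyads, 45.0% on both strands and 24.4 5hmC reads per dyad, close to the 54.9%, 44.1% and 22.7 of all dense bins. A bin counted when any 1 run of 6 distances matched, and a run broken by an unlisted dyad does not match. The count rose to 262 bins when 5 consecutive distances were asked for. How many runs match by coincidence was not tested.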

How the data were processed

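Genomic DNA of E14 cells was profiled by Pvu-Seal-seq. The authors deposited 1 table of read counts per listed cytosine for each mark, with no counts per library, not normalized. Per the submitters' processing notes, CASAVA, bcl2fastq, cutadapt and Bowtie were used with build mm9. The sources used here do not say how cut ends were assigned, sites listed, libraries pooled or 5fC libraries made. Labels of both 5hmC cultures name the 5hmC table, which was treated as that of passage 14.

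Plus- and minus-strand CG cytosines were joined into dyads and placed in 1 kb bins. Intervals are 95% Wilson intervals, and sites and bins are no replicates, so no p-values are given. The bins named in the text were those with the most dyads (5), the 3 highest and the 3 lowest ratios of reads between marks and the longest stretches (3), on autosomes other than 18. The bins, comparisons and this rule were chosen with earlier results of these data known. Crowding, neighbour, facing-cytosine and 3-base comparisons and the example bin were added after the tables were read. The supplied gene and promoter tables are of another build and were not used. Counting functions, tested on simulated data with 1000 bins, passed 6 of 6 checks. Analyses used Python 3.11.15, numpy 2.4.6, pandas 2.3.3, scipy 1.17.1 and matplotlib 3.10.9.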

Additional observations from a re-analysis of the deposited data

Results flagged for a closer look

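Chromosome X, which the choice of bins left out, held 37 bins with 25 or more listed 5hmC dyads among 94093 bins with a dyad. Dense bins were thus rarer there than on the autosomes, where they made up 0.325% of bins with a dyad. The largest of the 37 bins had 61 dyads. Of the 1151 dyads in these bins 41.4% had listed 5fC and 39.1% were on both strands for 5hmC. Chromosome Y held 0 such bins. Values for the other bins of chromosome X and its reads per dyad are not given here.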

How the results depend on the processing

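Shifting the bins by 500 bases left 6529 dense bins and moved the reads per dyad to 22.6. With 20 or more dyads there were 24925 bins, 45.6% of dyads on both strands, 53.3% with 5fC, a ratio of 5fC to 5hmC reads 1.38 times that of other bins, 23.9 reads per dyad, 25.1% of dyads with another 20 to 23 bases away and 19.3% of bins on chromosomes 8 and 11. With 30 or more dyads these values were 1882, 42.0%, 54.4%, 1.42 times, 21.4, 34.3% and 22.9%. With at least 5 reads per cytosine there were 3488 bins, 37.3% of dyads on both strands, 55.3% with 5fC, 25.5 reads per dyad, 31.4% with another dyad 20 to 23 bases away and 25.1% of bins on chromosomes 8 and 11. With at least 10 reads there were 552 bins, and the values were 25.3%, 52.4%, 32.8 reads, 35.0% and 42.0%, with a ratio 1.37 times that of other bins. Without chromosomes 8 and 11, 42.9% of dyads were on both strands and 52.9% had 5fC, with 21.1 reads per dyad. Without cytosines above 1000 reads the ratio was 1.42 times that of other bins. Shared patterns of 5 and 8 distances were found in 262 and 8 bins. The ratio stayed above that of other bins in all of these settings, and why values moved was not tested. No paired analysis was possible because each cytosine has a single count and none per library. No library could be left out and no replicate block was run either. In bins with 40 or more dyads, leaving out the bin with a cytosine above 1000 reads, a setting chosen after seeing the data, moved the ratio from 0.518 to 0.503. How depth bears on the listing of either mark was not tested.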

Other observations

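Some dense bins outside the naming rule are given because they stand at an end of a count, and they were picked after their values were seen. Chromosome 11 from 3093001 to 3094000 held the single dense bin with a cytosine above 1000 reads. It had 57 dyads with 21823 5hmC and 13940 5fC reads, or 383 5hmC reads per dyad, and 93.0% of its dyads were on both strands. In 4 bins every 5hmC dyad also had 5fC. The largest of these, on chromosome 8 from 123825001 to 123826000, had 30 dyads with 1250 5hmC and 949 5fC reads.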
